A study of Mus musculus with 6 samples.

Results

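The genes described here are 10 enzymes of triglyceride synthesis and glycerol supply in mouse gastrocnemius: Dgat1, Dgat2, Gpam, Agpat2, Agpat3, Lpin1, Lpin3, Mogat1, Gpd1 and Pck1. They were picked by symbol, 1 row each, out of 47967 genes in the deposited count table, and all 10 passed the filter on low counts. Gastrocnemius is a calf muscle, taken here from C57BL/6 males of 20 to 24 weeks. In the high phosphate group the food held 2.3% phosphate in total, 2.0% of it inorganic, and was given over 12 weeks. In the control group, on normal phosphate, it held 0.9% in total, 0.6% of it inorganic, over the same time. Both diets held 0.9% sodium, 1.8% potassium, 1.9% calcium and 0.3% magnesium, and the labels name no genotype or drug. There were 3 libraries per diet. The labels do not tie each library to its own mouse, so the p-values rest on a spread between samples that may be technical.

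Triglyceride is built on glycerol 3-phosphate. That backbone comes from glucose through dihydroxyacetone phosphate, which Gpd1 reduces, or from pyruvate through Pck1, a route called glyceroneogenesis that is best known in adipose tissue. Acyltransferases such as Gpam add the first fatty acid and the Agpat enzymes the next, giving phosphatidic acid. Lipins remove its phosphate to give diacylglycerol, and Dgat1 or Dgat2 adds the last fatty acid. Mogat1 belongs to a side entry that starts from monoacylglycerol. In muscle the product is stored in droplets inside the fibres, and adipocytes lying between the fibres hold it as well.

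The libraries held 21856006 to 27474251 gene counts. Levels are CPM, depth-scaled counts, normalized by the trimmed mean of M-values (TMM), as mean ± SD over n = 3 libraries per diet, and each log2 fold change sets high over normal phosphate, ± SE. A gene was called at a Benjamini-Hochberg adjusted p under 0.05 in edgeR's quasi-likelihood test over 15347 genes. TMM takes a typical gene as unchanged. With library size alone the median over all genes was -0.49 on the log2 scale, against -0.016 with TMM, so each direction below is relative to a typical gene. All 7 muscle fibre markers were abundant, with Acta1, the skeletal actin, at 38280 to 40810 CPM on high phosphate and 14280 to 20550 CPM on normal phosphate. Normal phosphate replicate 2 stood furthest from the rest of its diet, correlating at 0.981 and 0.983 with replicates 1 and 3, which correlated at 0.989 with each other.

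The pathway's genes went both ways. Dgat1, Dgat2, Agpat2 and Pck1 fell on the high phosphate diet, and Lpin1, Gpam, Gpd1 and Agpat3 rose relative to a typical gene, while Lpin3 and Mogat1 were not called. Of all genes tested 49.3% were called, 26.3% as lower and 23% as higher. The 8 calls among 10 genes are to be read against that background. The 10 had a median log2 fold change of -0.45, against -0.016 over all genes tested. That median is the midpoint between Lpin3 (-0.044) and Mogat1 (-0.86), and no member lay near it. With a filter of at least 1 CPM in 3 libraries, which drops Mogat1, it was -0.062. Without normal phosphate replicate 2 it was -0.25. The diets did not overlap in 9 of the 10, with 5 lower and 4 higher on high phosphate, where 32.1% and 30.3% of all genes tested were apart in those directions. With library size alone 5 were called lower, Mogat1 being added to the 4 above, and Lpin1 was the 1 gene called higher (5.72% of all genes were called higher and 51.4% lower). With replicate number as a block the 4 and 4 calls stood, beside 22.2% of all genes called higher and 25.5% lower.

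**Figure D1:**
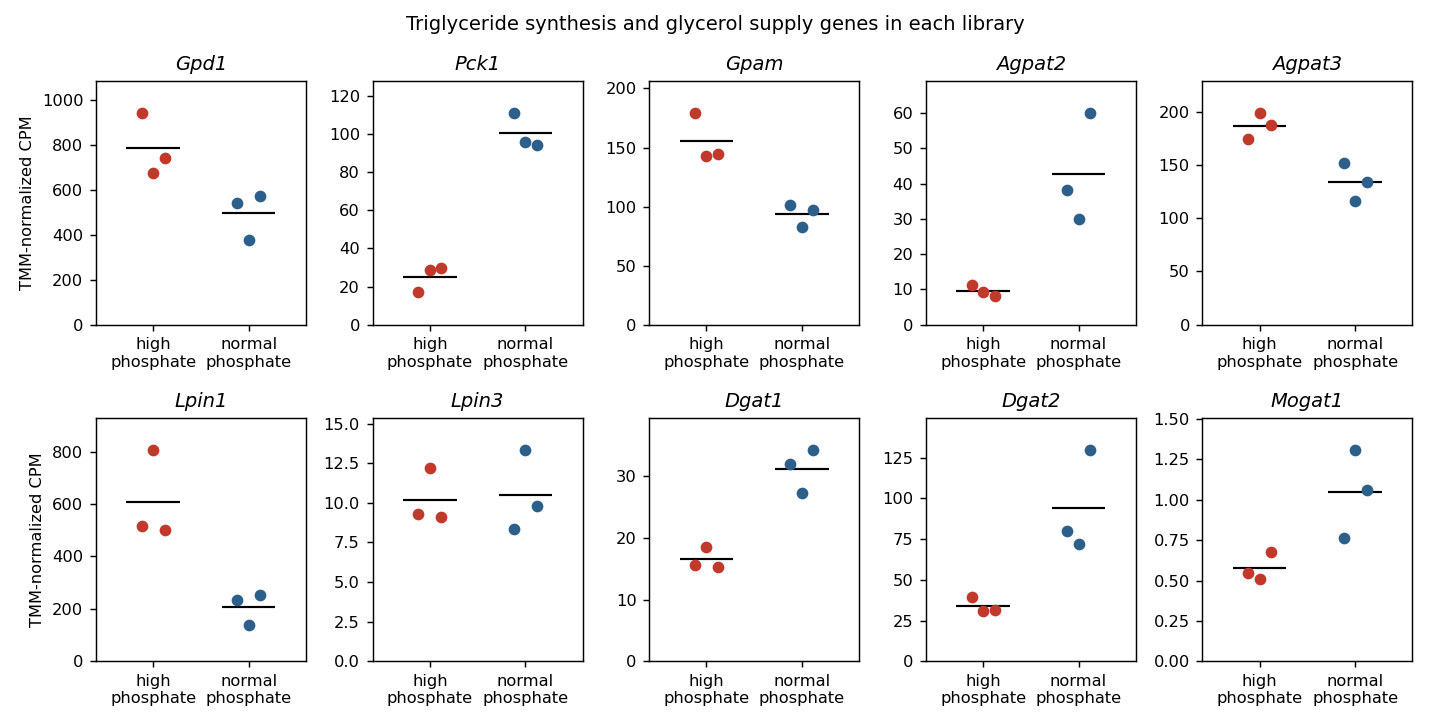
TMM-normalized CPM (vertical axes, each from 0) of the 10 genes in the 3 high phosphate libraries (red, left) and the 3 normal phosphate libraries (blue, right), with replicates 1, 2 and 3 from left to right and the mean as a bar. The diets overlap in Lpin3 alone, and Lpin1 shows 501 CPM or more on high phosphate against 253 CPM or less on normal phosphate.

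Promoters are shown for Pck1 and Agpat2, the members with the largest falls, and for Lpin1, the member with the largest rise. RefSeq (GRCm38.p6) held promoters for 7 of the 10 members, among them Gpam and Lpin3 with 2 each, and Dgat1, Dgat2 and Gpd1 are not shown. Each runs 5′ to 3′ on the gene's strand from 250 bases before the transcription start to 50 after it, with capitals marking matches to any of 8 motifs on either strand. The motifs were TATAAA (the core promoter box), TGACGT (cyclic AMP response element core), CACGTG (E-box), TCACNCCAC (an SREBP element), AGGTCA (nuclear receptor site), TGTTTAC (forkhead), AGAACA (glucocorticoid receptor site) and CCAAT.
Pck1 (chr2:173152823-173153122, plus strand): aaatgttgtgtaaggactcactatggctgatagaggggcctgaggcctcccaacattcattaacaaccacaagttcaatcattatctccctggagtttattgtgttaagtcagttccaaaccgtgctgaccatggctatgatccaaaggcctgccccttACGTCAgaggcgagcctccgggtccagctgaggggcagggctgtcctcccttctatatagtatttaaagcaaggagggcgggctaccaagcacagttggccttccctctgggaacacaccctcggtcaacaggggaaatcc
Agpat2 (chr2:26604368-26604667, minus strand): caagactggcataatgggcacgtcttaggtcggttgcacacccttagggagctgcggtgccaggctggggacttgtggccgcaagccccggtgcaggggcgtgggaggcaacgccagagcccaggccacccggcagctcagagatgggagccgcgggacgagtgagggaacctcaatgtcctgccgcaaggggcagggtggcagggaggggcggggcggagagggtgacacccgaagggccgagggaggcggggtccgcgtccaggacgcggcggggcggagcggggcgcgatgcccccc
Lpin1 (chr12:16610917-16611216, minus strand): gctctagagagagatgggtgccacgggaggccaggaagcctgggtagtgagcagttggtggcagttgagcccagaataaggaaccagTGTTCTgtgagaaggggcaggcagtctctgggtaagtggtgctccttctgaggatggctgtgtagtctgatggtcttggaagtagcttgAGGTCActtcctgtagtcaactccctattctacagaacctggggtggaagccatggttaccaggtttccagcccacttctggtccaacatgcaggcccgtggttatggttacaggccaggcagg

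The Pck1 promoter held 1 match, TGACGT read on the reverse strand, beginning 91 bases before the start, a motif present in 7.51% of 32851 promoters. The Lpin1 promoter held AGGTCA 74 bases and AGAACA (reverse strand) 163 bases before the start, present in 16.3% and 19% of promoters. In Agpat2, 72% G or C over this window, none of the 8 motifs occurred. The windows of Pck1 and Lpin1 were 52% and 55.3% G or C. Among all 9 member promoters TGACGT and AGGTCA occurred also in Gpam, and AGAACA also in Lpin3. These matches describe the letters alone.

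Gpd1, the cytosolic glycerol 3-phosphate dehydrogenase (chr15:99717515-99725005, GRCm38), had 944, 676 and 740 CPM in the high phosphate libraries (replicates 1, 2 and 3), against 540, 376 and 572 CPM in the normal phosphate libraries. The lowest high phosphate library lay above the highest normal phosphate one. Gpd1 rose by 0.67 ± 0.21 on the log2 scale (edgeR adjusted p = 0.0269). The call was lost without high phosphate replicate 1 (0.53, edgeR adjusted p = 0.0981) or replicate 3 (0.72, edgeR adjusted p = 0.0562), and with library size alone (0.20, edgeR adjusted p = 0.297). Nor was Gpd1 called on log2(FPKM + 1) (0.21, limma adjusted p = 0.350). Of its exonic bases 13.0% are also annotated to Gm16537 on the opposite strand, and reads of the 2 genes cannot be told apart without a stated strand setting. Gpd2, the mitochondrial partner of Gpd1 in the glycerol phosphate shuttle, rose to 293 ± 55.6 CPM on high phosphate, against 140 ± 26.9 CPM on normal phosphate (1.06 ± 0.19, edgeR adjusted p = 0.00218). With library size alone the rise of Gpd2 was 0.59, still called, and on log2(FPKM + 1) it was not called (0.61, limma adjusted p = 0.236). Gpd1l, a relative of Gpd1, stood at 56.7 ± 1.54 and 47.9 ± 2.22 CPM on high and normal phosphate, a difference close to the threshold (0.24 ± 0.091, edgeR adjusted p = 0.0489) that turned to -0.23 with library size alone.

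Pck1, the cytosolic phosphoenolpyruvate carboxykinase (chr2:173153048-173159273), went the other way. It had 17.1, 28.7 and 29.8 CPM on high phosphate and 111, 96.0 and 94.1 CPM on normal phosphate. The diets were far apart, and high phosphate replicate 1 was the lowest library. Pck1 fell by 2.00 ± 0.20 on the log2 scale, a level 3.99-fold lower (edgeR adjusted p = 0.000363). Pck2, the mitochondrial form, also fell, with 8.95 ± 1.67 CPM on high phosphate and 15.8 ± 3.05 CPM on normal phosphate (-0.82 ± 0.18, edgeR adjusted p = 0.00595).

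Of 11 other genes of supply listed, 9 were tested, and 3 rose (Gpd2, Gpd1l and Pgp), 1 fell (Pck2) and 5 were not called, so 44.4% were called, against 49.3% of all genes. Pgp, a phosphatase of phosphoglycolate and glycerol 3-phosphate, had 48.7 ± 3.16 CPM on high phosphate and 36.0 ± 7.66 CPM on normal phosphate (0.44 ± 0.15, edgeR adjusted p = 0.0400), and its sign turned with library size alone (-0.028). The 5 not called had log2 fold changes of -0.53 to 0.36, and the 2 glycerol channels too low to test did not exceed 0.531 CPM in any library.

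Gpam, the mitochondrial glycerol 3-phosphate acyltransferase that makes the first acylation (chr19:55067268-55127238), had 179, 143 and 145 CPM on high phosphate, against 102, 82.8 and 97.0 CPM on normal phosphate. Every high phosphate library was above every normal phosphate library. Gpam rose by 0.73 ± 0.14 on the log2 scale (edgeR adjusted p = 0.00264), and with library size alone it just missed the threshold (0.26, edgeR adjusted p = 0.0521). It was not called on log2(FPKM + 1) (0.23, limma adjusted p = 0.122). The other 2 acyltransferase genes tested at this step were not called, with log2 fold changes of -0.53 and 0.17.

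Agpat2, the 1-acylglycerol 3-phosphate acyltransferase whose loss in humans causes a congenital lipodystrophy (chr2:26593057-26604417), fell about as much as Pck1. It stood at 11.3, 9.38 and 8.26 CPM on high phosphate and at 38.2, 29.9 and 60.1 CPM on normal phosphate. The high phosphate libraries were close together, and normal phosphate replicate 3 was high. Agpat2 fell by 2.14 ± 0.26 on the log2 scale, 4.42-fold (edgeR adjusted p = 0.000798), a direction and call kept when each library was left out in turn. Its change was larger than that of Pck1 with all libraries, and smaller without normal phosphate replicate 3 (-1.82, against -2.05 for Pck1).

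Agpat3, another acyltransferase of the same step (chr10:78269178-78352489), had 174, 199 and 187 CPM on high phosphate and 152, 117 and 134 CPM on normal phosphate. The diets were apart but close, 174 CPM being the lowest high phosphate library and 152 CPM the highest normal phosphate one. Agpat3 rose by 0.48 ± 0.13 on the log2 scale (edgeR adjusted p = 0.0157), a call lost without high phosphate replicate 2 (0.45, edgeR adjusted p = 0.0559) with library size alone (0.016), and on log2(FPKM + 1) (0.13, limma adjusted p = 0.530). Agpat1 rose more, to 106 ± 4.41 CPM on high phosphate, against 51.2 ± 10.2 CPM on normal phosphate (1.04 ± 0.15, edgeR adjusted p = 0.000959). Agpat4 fell to 4.15 ± 0.777 CPM on high phosphate, against 7.891 ± 1.604 CPM on normal phosphate (-0.93 ± 0.20, edgeR adjusted p = 0.00553). Lclat1, which acylates lysocardiolipin, had 29.5 ± 0.842 and 21.1 ± 0.508 CPM on high and normal phosphate (0.49 ± 0.093, edgeR adjusted p = 0.00283), a rise that library size alone reduced to 0.0099, without a call. On log2(FPKM + 1) Lclat1 was not called either (0.66, limma adjusted p = 0.203).

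Lpin1, the main phosphatidic acid phosphatase of muscle (chr12:16535669-16610966), rose the most. It had 515, 808 and 501 CPM in the high phosphate libraries, against 235, 139 and 253 CPM in the normal phosphate libraries. High phosphate replicate 2 was the highest library and normal phosphate replicate 2 the lowest. Lpin1 rose by 1.54 ± 0.27 on the log2 scale, 2.91-fold (edgeR adjusted p = 0.00226), and the rise was called with library size alone (1.09) and on the authors' FPKM values as well. Lpin2 fell, to 6.82 ± 0.121 CPM on high phosphate, against 11.4 ± 2.21 CPM on normal phosphate (-0.74 ± 0.16, edgeR adjusted p = 0.00529). The fall of Lpin2 was not called on log2(FPKM + 1) (-0.50, limma adjusted p = 0.135).

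Lpin3, the third lipin (chr2:160880670-160906002), had 9.30, 12.2 and 9.09 CPM on high phosphate and 8.35, 13.4 and 9.78 CPM on normal phosphate. The diets overlapped throughout, and the log2 fold change was -0.044 ± 0.20 (95% interval -0.49 to 0.40, edgeR adjusted p = 0.865). The deposited FPKM values gave another picture. They were 1.19, 1.07 and 1.24 on high phosphate and 1.81, 4.34 and 3.31 on normal phosphate, with no overlap, and on the log2(FPKM + 1) scale Lpin3 was called lower (-0.89, limma adjusted p = 0.0277), as were 33.2% of all genes on that scale (3.88% were called higher). Raw counts of 203, 239 and 175 on high phosphate and 218, 377 and 267 on normal phosphate lie behind the first result. The length that turns these counts into the FPKM values, at the depth of each library, was 6221 to 9888 bases on high phosphate and 3406 to 5089 bases on normal phosphate, where the annotated exons of Lpin3 cover 3694 bases. For the other members, leaving out Mogat1 with its few counts, the ratio of this length on high over normal phosphate was 0.925 to 1.04, against 1.81 for Lpin3. With no filter on FPKM the call was lost (limma adjusted p = 0.0577). The 2 deposited tables thus differ for Lpin3 in the size of the difference and in the call, and the cause was not tested. This length also varied between single libraries for other pathway genes whose FPKM results are given here. It was 4250 to 7464 bases for Gpd2, 3910 to 20610 for Lclat1, 3909 to 18130 for Lpin2 and 2979 to 5857 for Cept1. Their FPKM results carry that variation.

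Dgat1 and Dgat2 make the last step by unrelated proteins. Dgat1 (chr15:76502015-76511953) had 15.7, 18.6 and 15.3 CPM on high phosphate, against 32.1, 27.4 and 34.3 CPM on normal phosphate. Dgat2 (chr7:99153658-99182719) had 39.3, 31.2 and 31.8 CPM on high phosphate, against 79.9, 71.9 and 130 CPM on normal phosphate. The diets were apart in both, and normal phosphate replicate 3 was the highest library for each, as it was for Agpat2. Dgat1 fell by 0.92 ± 0.13 on the log2 scale, 1.89-fold (edgeR adjusted p = 0.000853). Dgat2 fell by 1.46 ± 0.22, 2.75-fold (edgeR adjusted p = 0.00159). The share of Dgat2 in the summed counts per kb of the pair was 71.3, 62.4 and 67.3% on high phosphate and 71.2, 72.3 and 79.0% on normal phosphate. These shares overlapped, with a difference of -7.11 percentage points (two-sided exact permutation test, p = 0.2, where 3 against 3 allows no p below 0.1).

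Mogat1, the monoacylglycerol acyltransferase (chr1:78510991-78538173), was at the edge of detection, with 12, 10 and 13 counts on high phosphate and 20, 37 and 29 counts on normal phosphate. In CPM this was 0.550, 0.510 and 0.675 against 0.766, 1.31 and 1.06. The diets did not overlap, but the difference just missed the threshold (-0.86 ± 0.32, unadjusted p = 0.0250 and edgeR adjusted p = 0.0505). The test was passed when normal phosphate replicate 1 was left out (-1.03, edgeR adjusted p = 0.0313) and with library size alone (-1.34, edgeR adjusted p = 0.0112). With any other library left out it was not called (edgeR adjusted p = 0.0826 to 0.1595). Nor was Mogat1 called by DESeq2 (DESeq2 adjusted p = 0.1315) or on log2(FPKM + 1) (limma adjusted p = 0.1317). Of its exonic bases 12.8% are shared with BC035947 on the other strand, and Mogat2 was too low to test.

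**Figure D2:**
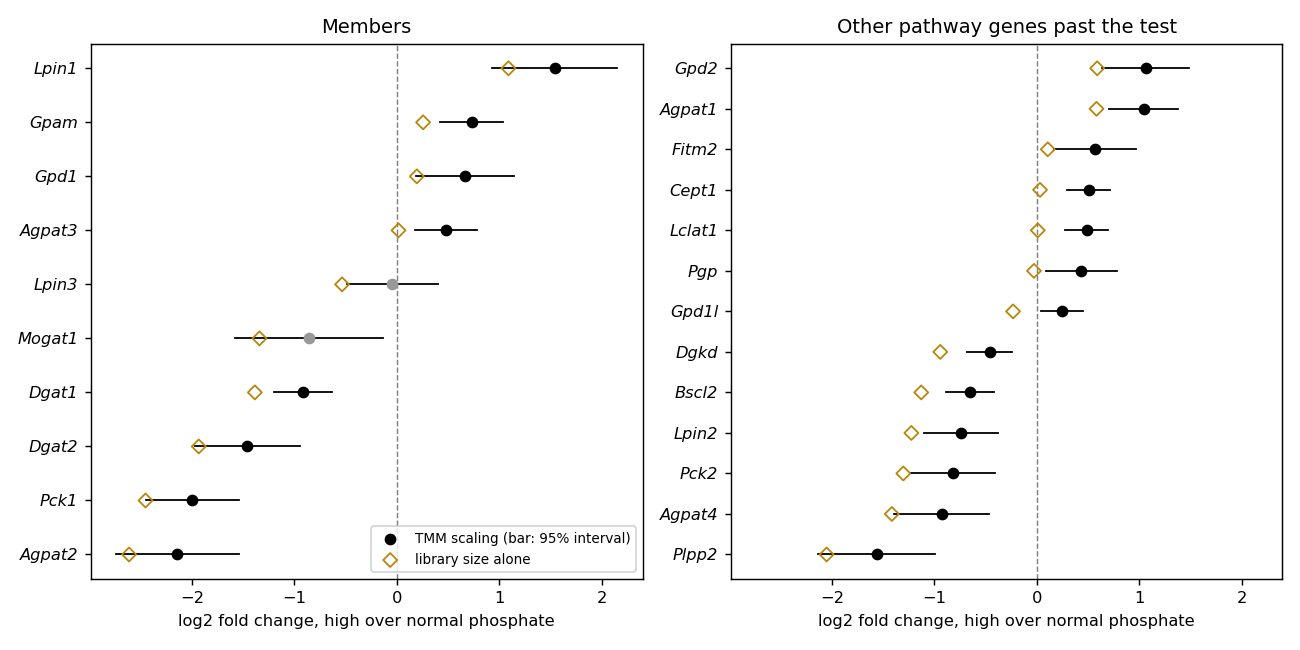
Log2 fold changes, high over normal phosphate (horizontal axis), of the 10 members (left) and of the 13 other pathway genes that passed the test (right). Filled points with 95% intervals are TMM-scaled edgeR estimates (grey where not called), and open diamonds are the same fit with library size alone. The diamonds lie left of the points throughout, near 0 for Agpat3 (0.016) and still at 1.09 for Lpin1.

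Levels per kb of exon gave the order of the members within each diet. On high phosphate Gpd1 (266 ± 47.2 CPM per kb) was followed by Lpin1 (62.9 ± 17.9), Agpat3 (24.0 ± 1.57), Gpam (23.4 ± 3.08), Dgat2 (11.1 ± 1.47), Pck1 (7.35 ± 2.05), Dgat1 (5.41 ± 0.589), Agpat2 (4.53 ± 0.728), Lpin3 (2.76 ± 0.467) and Mogat1 (0.371 ± 0.0554), all in CPM per kb. Agpat3 and Gpam overlapped, as did Pck1 and Dgat1, and Dgat1 and Agpat2. On normal phosphate Gpd1 led as well (168 ± 35.6 CPM per kb), followed by Dgat2 (30.5 ± 10.2), Pck1 (29.3 ± 2.71), Lpin1 (21.6 ± 6.32), Agpat2 (20.1 ± 7.32), Agpat3 (17.2 ± 2.25), Gpam (14.1 ± 1.46), Dgat1 (10.2 ± 1.17), Lpin3 (2.84 ± 0.698) and Mogat1 (0.672 ± 0.175), all in CPM per kb. Dgat2 and Pck1 overlapped, as did each neighbouring pair from Lpin1 to Gpam. Per kb of exon, Pck1 was above Lpin1 in every normal phosphate library and below it in every high phosphate library. That order on normal phosphate rests on the division by exon length. In CPM, Lpin1 was above Pck1 there as well (235, 139 and 253 against 111, 96.0 and 94.1 CPM). On the authors' FPKM values, Lpin1 (38.3) was above Pck1 (30.2) in normal phosphate replicate 3.

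The make-up of each step by isoenzyme was given as each gene's percent of the counts per kb of its step, a measure in which the scaling of the libraries cancels. Among the 5 Agpat genes, Agpat2 held 8.09, 6.21 and 5.68% on high phosphate, against 28.9, 29.0 and 40.5% on normal phosphate. Agpat1 held 51.0, 50.9 and 52.6% on high phosphate and 30.8, 27.1 and 27.2% on normal phosphate. Agpat3 held 34.1, 36.0 and 35.2% on high phosphate and 31.3, 30.9 and 24.6% on normal phosphate. Agpat2 thus had a share near those of Agpat1 and Agpat3 in normal phosphate replicates 1 and 2 and a larger one in replicate 3. These levels depend on the division by exon length: without it, a choice made after seeing the data, the difference in the Agpat2 share was -13.0 percentage points, against -26.1 per kb. Summed over the 5 genes, the step itself overlapped between the diets, at 68.3 ± 2.63 CPM per kb on high phosphate and 60.1 ± 10.8 CPM per kb on normal phosphate (two-sided exact permutation test, p = 0.3). Unlike the shares, the sums of this and the other steps rest on the TMM scaling. The TMM factors were 0.795 to 0.882 on high phosphate and 1.10 to 1.29 on normal phosphate. Library size alone, not applied to the sums, would thus lower those on high phosphate against those on normal phosphate.

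The lipin step was larger on high phosphate and more nearly all Lpin1. Its sum was 66.2 ± 18.4 CPM per kb on high phosphate and 25.4 ± 5.51 CPM per kb on normal phosphate, and Lpin1 held 94.9 ± 0.630% and 84.1 ± 7.68% of it. Lpin3 held 4.47, 3.77 and 4.49% on high phosphate, against 8.26, 18.9 and 8.94% on normal phosphate, the high value being replicate 2. In the first acylation Gpam held 69.3 ± 2.51% on high phosphate and 58.4 ± 2.83% on normal phosphate, without overlap. The sum of Dgat1 and Dgat2 was 16.5 ± 1.29 CPM per kb on high phosphate and 40.7 ± 11.2 CPM per kb on normal phosphate, also without overlap. Pck1 held 86.2 ± 1.77% of the Pck1 and Pck2 sum on high phosphate and 93.5 ± 1.58% on normal phosphate. Each of the differences without overlap had p = 0.1 in the two-sided exact permutation test, the smallest that 3 against 3 allows.

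**Figure D3:**
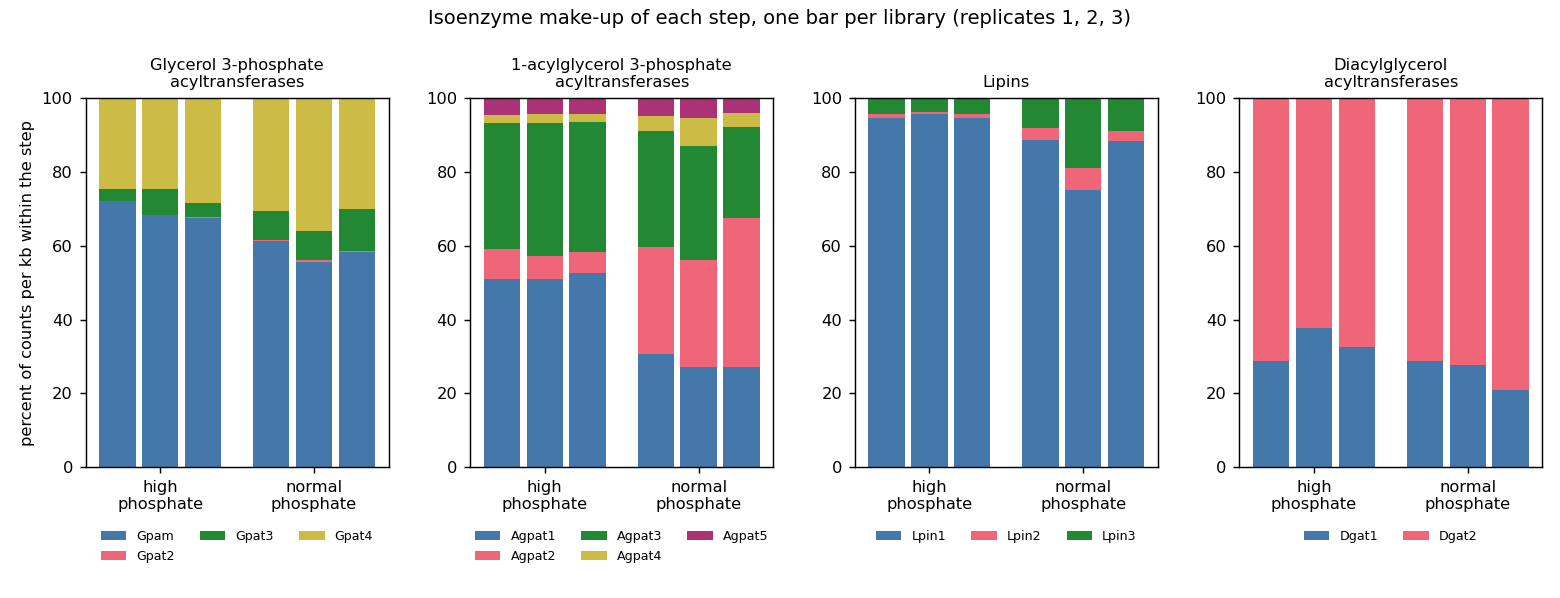
Percent of the counts per kb of exon (vertical axis, 0 to 100) held by each isoenzyme within 4 steps, 1 bar per library, high phosphate left and normal phosphate right, replicates 1, 2 and 3 in order. Agpat2 shrinks to 5.68 to 8.09% of its step on high phosphate, against 28.9 to 40.5% on normal phosphate, while Dgat1 and Dgat2 keep overlapping shares.

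Beyond the 10, a list of 35 other genes of the pathway was counted. Of these 31 were tested, and 7 rose, 6 fell and 18 were not called, so 41.9% were called, against 49.3% of all genes tested. Their median log2 fold change was 0.095. Without normal phosphate replicate 2, 4 rose (3042 of all genes), as without high phosphate replicate 2 (2973), against 3528 of all genes with every library. With library size alone 2 rose and 17 fell, where 5.72% of all genes were called higher and 51.4% lower. Among the 4 genes that package triglyceride at the endoplasmic reticulum, Bscl2, which encodes seipin, fell to 21.96 ± 0.320 CPM on high phosphate, against 34.5 ± 3.47 CPM on normal phosphate (-0.65 ± 0.11, edgeR adjusted p = 0.00147). Fitm2, a fat storage-inducing protein, rose (0.57 ± 0.18, edgeR adjusted p = 0.0242), but was not called with library size alone (0.11) or without high phosphate replicate 2 or normal phosphate replicate 2 or 3 (0.42, 0.45 and 0.58). The other 2 packaging genes were not called, with log2 fold changes of -0.21 and 0.42.

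Of the 11 other genes listed that use phosphatidic acid or diacylglycerol, 1 rose, 2 fell and 8 were not called. Thus 27.3% were called, against 49.3% of all genes. Plpp2, a lipid phosphate phosphatase, fell to 1.395 ± 0.378 CPM on high phosphate, against 4.14 ± 0.575 CPM on normal phosphate (-1.56 ± 0.25, edgeR adjusted p = 0.00152). Dgkd, which turns diacylglycerol back into phosphatidic acid, fell as well (-0.46 ± 0.097, edgeR adjusted p = 0.00444). Cept1, which makes choline and ethanolamine phospholipids from diacylglycerol, rose to 54.4 ± 2.66 CPM on high phosphate, against 38.3 ± 1.79 CPM on normal phosphate (0.51 ± 0.094, edgeR adjusted p = 0.00258). It was not called with library size alone (0.032), its sign turned on the log2(FPKM + 1) scale (-0.23), and 24.9% of its exonic bases are shared with other genes, mainly Dennd2d on the other strand.

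Markers of adipocytes moved with the genes that fell. All 9 white adipocyte markers were lower on high phosphate, and their summed level was 563 to 971 CPM on high phosphate and 2378 to 3024 CPM on normal phosphate. None of the 9 was at 0 in any library, and Adipoq, the adipokine adiponectin, had 31.8, 49.8 and 51.4 CPM on high phosphate and 201, 168 and 235 CPM on normal phosphate. In bulk tissue fewer adipocytes and less RNA per adipocyte cannot be told apart. The marker score, the mean log2 CPM of the 9, differed by -2.03 on high phosphate (4.34, 4.97 and 4.94, against 6.66, 6.64 and 7.04). The library with the lowest score, high phosphate replicate 1, was the lowest in Pck1, and the one with the highest score, normal phosphate replicate 3, was the highest in Agpat2, Dgat1 and Dgat2. The same libraries also went against the score. High phosphate replicate 1 was the highest of its diet in Agpat2 and Dgat2, and normal phosphate replicate 3 was the lowest of its diet in Pck1.

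The members were also set against that score within each library. Pck1 minus the score was -0.24, -0.12 and -0.035 on high phosphate and 0.14, -0.058 and -0.48 on normal phosphate, a difference of 0.0032 on the log2 scale (two-sided exact permutation test, p = 1). Agpat2 minus the score differed by -0.055 (p = 0.9 in the same exact test), with overlap between the diets. Dgat2 minus the score was 0.96, -0.0022 and 0.059 on high phosphate and -0.34, -0.48 and -0.018 on normal phosphate. The diets were barely apart, and the difference of 0.62 (p = 0.1 in the exact test) fell to 0.31 without high phosphate replicate 1. Dgat1 minus the score was 1.12 higher on high phosphate, Mogat1 1.28 and Lpin3 2.01 (p = 0.1 each in the exact test). The score itself differed by -2.03 without overlap between the diets. A gene with no change, as Lpin3 nearly was, therefore stands about that much higher against the score. The p of 0.1 then reflects the score, and Dgat1 and Mogat1 lay below that value because their own levels were lower on high phosphate. The members that rose stood 2.52 (Agpat3) to 3.58 (Lpin1) higher against the score on high phosphate. With the score as a covariate no member was called (1 was higher and 0 lower at an unadjusted p under 0.05, and 0.013% of all genes were called in each direction by edgeR), but diet set 94.6% of the variance of the score, so diet and adipocyte markers cannot be told apart in that fit.

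**Figure D4:**
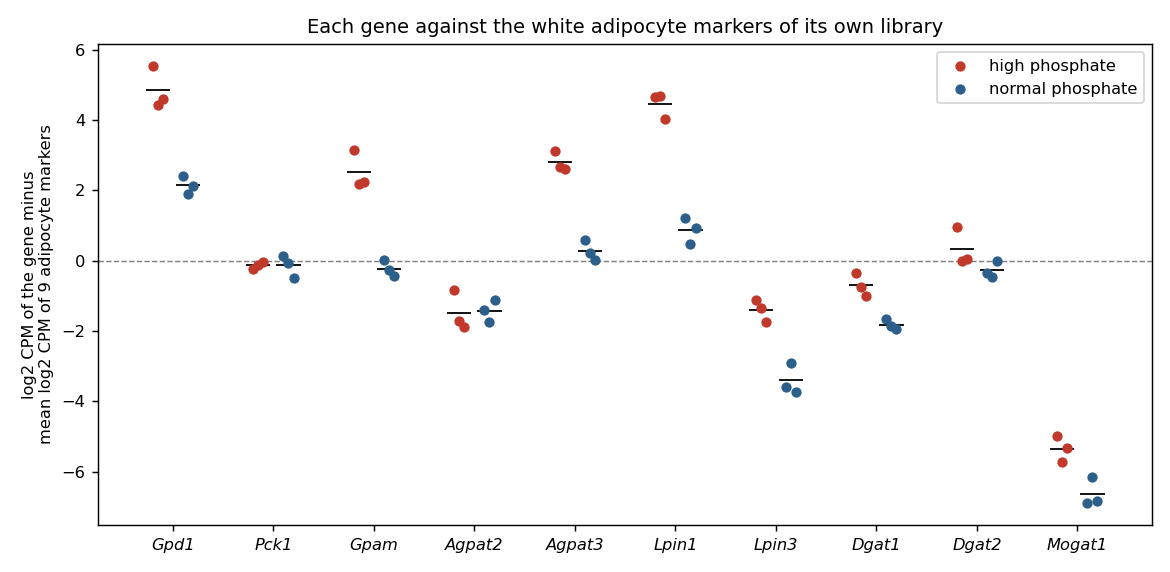
Log2 CPM of each gene minus the mean log2 CPM of 9 white adipocyte markers in the same library (vertical axis), for the 3 high phosphate (red, left) and 3 normal phosphate libraries (blue, right), with means as bars. Pck1 and Agpat2 overlap between the diets (differences of 0.0032 and -0.055), while Lpin1 stands 3.58 higher on high phosphate. The marker mean itself differs by -2.03 between the diets, so a gene with no change would stand about that much higher.

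Markers of other cells moved too. All 7 muscle fibre markers rose, with a summed level of 157600 to 197700 CPM on high phosphate and 53510 to 77850 CPM on normal phosphate. The fibroblast (6 of 6), endothelial (5 of 5) and B cell markers (5 of 5) fell, as did 5 of 6 macrophage markers. The remaining macrophage marker, Cd163, rose with overlap between the diets, close to the threshold (0.59 ± 0.22, edgeR adjusted p = 0.0494). Summed levels of these lists on high and normal phosphate were 1967 to 2236 and 3930 to 8405 CPM for fibroblasts, and 377 to 529 and 670 to 803 CPM for endothelium. They were 286 to 412 and 799 to 1478 CPM for macrophages, and 0.962 to 1.83 and 9.004 to 56.2 CPM for B cells. Ucp1, the defining brown adipocyte gene, had 1 count in high phosphate replicate 3, 1 in normal phosphate replicate 2 and 0 in the other libraries, and the 2 brown adipocyte markers high enough to test, Cidea and Cox8b, were not called (edgeR adjusted p = 0.131 and 0.325). Cox8b stood at 369 to 695 CPM where Ucp1 was all but absent, so its level cannot be read as that of brown adipocytes. Of the 5 hepatocyte markers, counted because liver is rich in Pck1, Alb and Cyp2e1 were high enough to test and did not pass (edgeR adjusted p = 0.0775 and 0.0550), and the list summed to 33.6 to 80.1 CPM on high phosphate and 81.2 to 231 CPM on normal phosphate. Cyp2e1 made up most of that sum (48.6 and 138 CPM on average on high and normal phosphate), and Alb, the defining gene, averaged 1.68 and 4.16 CPM. The part of these cells in the results above was not tested.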

How the data were processed

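RNA from gastrocnemius muscle was sequenced in 6 libraries, 3 per diet. Per the submitters' processing notes, Trim Galore 0.4.1, HISAT2 2.0.1, featureCounts 1.4.6, DESeq2 1.6.3 and GRCm38 were used. The strand setting and annotation release were not given in the sources used. The deposited counts are raw whole-number counts per gene. The deposited FPKM values were scaled by length and depth by the authors, with an unnamed tool.

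Counts were scaled by TMM, filtered with filterByExpr and tested with edgeR 4.0.16 (robust quasi-likelihood F test, Benjamini-Hochberg adjustment over 15347 genes, threshold 0.05) in R 4.3.3. DESeq2 1.42.0 and limma 3.58.1 (voom on counts, and log2(FPKM + 1) on FPKM above 0.1 in 3 libraries) were alternatives. The pipeline was also run on simulated data in which few genes changed, as many up as down. That run does not test the scaling in data where 49.3% of genes were called. Single values were compared with a two-sided exact permutation test, whose smallest p is 0.1. Lengths are exon unions of GENCODE M21 (GRCm38), and promoters are from RefSeq. The depth, 21856006 to 27474251 counts, limits the low genes, Mogat1 above all. No library was left out, and no replicates differed by less than sampling noise.

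The 10 genes, the other lists and the tests were chosen with earlier results of these data known. All 10 are named, and of the other pathway genes those that passed the test are named and the rest are given by count and range.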

Additional observations from a re-analysis of the deposited data

How the results depend on the processing

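Dgat1, Dgat2, Agpat2, Pck1 and Lpin1 kept their direction and passed the threshold under every alternative of scaling, filter, tool, unit, block and left-out library, except in the fit with the white adipocyte score as a covariate, where diet and score cannot be told apart. That fit called 2 genes higher and 2 lower of all genes, and 0 members and 0 other pathway genes in each direction, and turned Lpin3 to 0.18 and Pck2 to 0.14. Library size alone called 878 genes higher and 7886 lower, with 1 member higher and 2 pathway genes higher and 17 lower. It gave marker score differences of -2.51 (white adipocyte), -0.56 (brown adipocyte), 0.79 (fibre), -1.98 (fibroblast), -1.80 (macrophage) and -1.25 (endothelial), and turned Gpd1l to -0.23 and Pgp to -0.028. On log2(FPKM + 1), 777 genes were higher and 6652 lower, 1 member was higher, 1 pathway gene was higher and 12 lower, and Gpd1l (-0.20), Pgp (-0.046) and Cept1 (-0.23) turned. On log2(FPKM + 0.1) these counts were 808, 7057, 1, 1 and 12, and the 3 genes stood at -0.22, -0.048 and -0.25. With no filter on FPKM, 566 genes were higher, with 1 member and 0 pathway genes (1 at an unadjusted p under 0.05, limma), and the 3 genes turned as on log2(FPKM + 1). Asking for at least a 2-fold change left 686 genes higher and 2076 lower, 1 member higher and 3 lower, and 2 pathway genes higher and 1 lower. Dgat1, at 1.89-fold, did not reach that size. A prior count of 0.5 gave a brown adipocyte score difference of -0.59, but that score averages Cox8b with genes near the floor and does not measure brown adipocytes here.

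When each library was left out in turn, members called higher ranged from 3 to 4 and lower from 4 to 5. Pathway genes called higher ranged from 4 to 8 in these fits. Of all 15556 to 16017 genes tested, 2782 to 3502 were called higher and 3370 to 4075 lower. With all libraries these were 3528 and 4035 of 15347. The log2 fold change of Lpin3 ranged from -0.18 to 0.17. Pgp lost its call without high phosphate replicate 1, 2 or 3 or normal phosphate replicate 2, and Gpd1l whichever of the 6 was left out. Same-numbered libraries of the diets did not deviate together over all genes tested (correlations of -0.0215, 0.0223 and 0.0188). The replicate numbers thus showed no pairing, though one of small effect or in few genes could be missed. With replicate number as a block, 3407 genes were called higher and 3921 lower, 4 members in each direction and 7 pathway genes in each, and Gpd1l was lost (0.25, edgeR adjusted p = 0.0830). Isoenzyme shares of counts not divided by length, an alternative chosen after seeing the data, differed between the diets by -13.0 percentage points for Agpat2, -3.31 for Lpin3 and -12.9 for Pck1, the same direction as per kb. Depth limits Mogat1, whose libraries hold 10 to 37 counts.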
